A study of Drosophila melanogaster with 14 samples.

Results

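Indirect flight muscles (IFM) of wild-type pupae were set against the wing discs of wild-type larvae of the third instar, the tissue in which the precursors of these muscles lie. Wild type is given as w1118 in the description of the series and spelled w11118 in the sample labels, and both tissues come from it. IFM were dissected from the thorax of pupae at 96 h after puparium formation (APF), with 2 samples, and wing discs from wandering larvae, with 3 samples, so that 5 of the 14 RNA-seq samples of the series are used. The samples were taken by their labels for tissue and wild-type genotype. The number of animals behind a sample is not given in the labels, and the *P* values therefore concern these samples only. For single genes, the spread behind them is shared among genes of like level, as given below. Tissue, age and the table in which the values were deposited change together, and their parts in any difference cannot be told apart.

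The IFM are the large fibrillar muscles that move the wings by deforming the thorax. Their fibres are syncytia built by the fusion of myoblasts, carry very regular myofibrils with a muscle-specific actin, and are packed with mitochondria that burn sugar and proline aerobically. The myoblasts descend from adult muscle progenitors (AMPs), which divide on the surface of the wing disc during larval life under the control of Twist and Notch. The disc itself is mostly a folded, dividing epithelium whose territories are laid down by selector transcription factors and by secreted signals such as Wingless, Decapentaplegic and Hedgehog. Tet, the enzyme studied in this series, is a dioxygenase known in *Drosophila* to oxidise methylated cytosine in RNA.

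Values are RPKM, reads per kilobase of exon scaled to the size of the library, as deposited by the authors for each tissue in its own table. Of 17252 genes found in both tables by identifier, 12509 with a mean of the tissue means of at least 0.5 RPKM were tested with limma on log2(scaled RPKM + 0.5). Reads on genes, recovered from the steps of the values and rounded, came to 42400000 and 33300000 in IFM and to 20200000, 16900000 and 22200000 in wing discs, and a single read on a gene of 1 kb was worth 0.0264 and 0.0280 RPKM in IFM and 0.0465, 0.0441 and 0.0442 RPKM in wing discs. All 33 genes of the mitochondrial genome are listed at 0 in every wing disc library, whereas they held 47.8 and 31.0% of the reads in IFM samples 1 and 2. They were left out together with ribosomal RNA genes. Wing disc sample 2 stands apart by a low signal on nearly all genes. The 120 odorant and gustatory receptor genes, which neither tissue is known to need, had a median of 0.0449 and 0 RPKM in IFM samples 1 and 2, and of 0.0409, 2.13 and 0.0960 RPKM in wing disc samples 1, 2 and 3. Results are therefore also given without that library.

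Most plotted markers of flight muscle and disc epithelium stood higher in their own tissue, as the plot of marker genes by library shows. The flight muscle marker *salm*, also a patterning gene of the disc, went the other way in deposited RPKM, but its direction turned with the scaling. It had 34.2 and 40.4 RPKM in IFM, against 98.4, 72.2 and 103 RPKM in wing discs. The plotted progenitor markers *zfh1* and *htl* also turned in direction with the scaling, and all 3 genes are taken up below. *Act88F* (FBgn0000047, 3R:15439969-15442177 in dm6), the actin of the flight muscle thin filament, stood at 14669 and 16481 RPKM in IFM, against 0.904, 3.73 and 0.555 RPKM in wing discs. *TpnC4*, its calcium-binding troponin C, stood at 1332 and 1701 RPKM in IFM, against 0.438, 2.39 and 0.0521 RPKM in wing discs. *fln*, the gene of the thick filament protein flightin, had 86.2 and 73.1 RPKM in IFM, against 0.0358, 0.949 and 0.0340 RPKM in wing discs. In wing discs each of the 3 was highest in sample 2, the library with the raised background. On the disc side, *nub*, a selector of the wing pouch, stood at 1.07 and 0.594 RPKM in IFM, against 112, 77.1 and 100.2 RPKM in wing discs. *Dll*, which marks distal limb territory and the wing margin, had 0.159 and 0.211 RPKM in IFM, against 56.1, 41.9 and 51.7 RPKM in wing discs. The cell adhesion gene *Fas3*, a marker of the disc epithelium, had 2.32 and 2.48 RPKM in IFM, against 198, 147 and 205.03 RPKM in wing discs. *wg*, the Wingless ligand gene, carries different identifiers in both tables, was joined by its symbol and was not tested. It had 0.163 and 0.259 RPKM in IFM, against 43.2, 34.8 and 41.5 RPKM in wing discs.

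**Figure D1:**
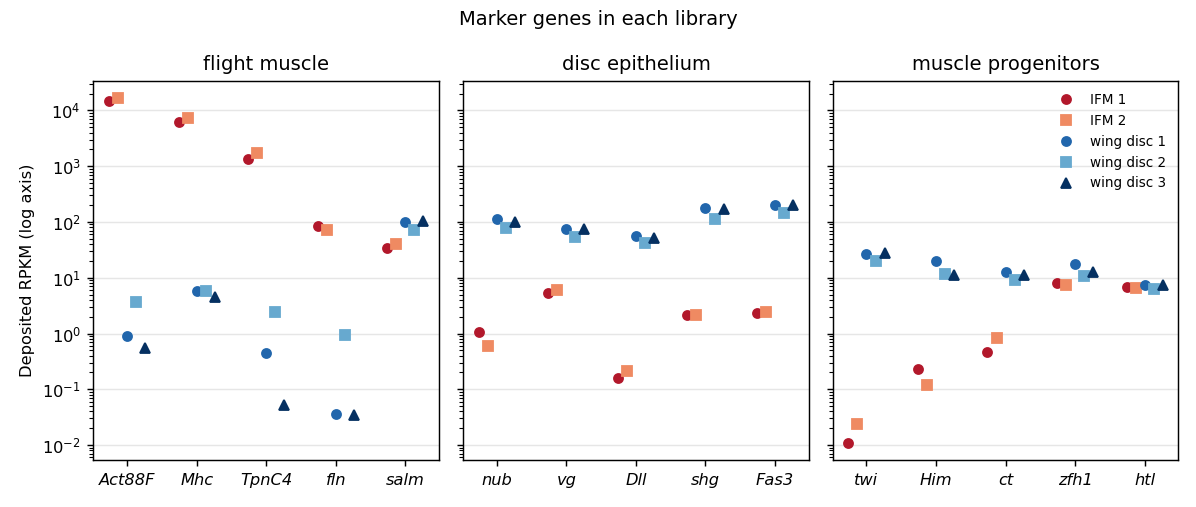
Deposited RPKM (log axis) of 5 markers each of flight muscle, disc epithelium and muscle progenitors in the 2 IFM and 3 wing disc libraries. *Act88F* lies at 14669 and 16481 RPKM in IFM and at 0.904, 3.73 and 0.555 RPKM in wing discs, while *htl*, at 6.78 and 6.5396 RPKM in IFM and 7.30, 6.21 and 7.402 RPKM in wing discs, hardly differs.

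The transcript pool of IFM was concentrated in far fewer genes than that of the disc. Over the protein-coding genes of the nuclear genome with the same identifier in both tables, the coding pool below, the 10 highest genes held 30.9 and 29.99% of the summed RPKM in IFM samples 1 and 2, against 8.09, 6.73 and 7.76% in wing disc samples 1, 2 and 3. The 100 highest held 67.9 and 65.6% in IFM and 33.5, 31.0 and 34.8% in wing discs. It took 35 and 41 genes to reach 50% of the pool in IFM and 351, 481 and 314 genes in wing discs. The tissues did not overlap in any of these measures, which need no scaling between the tables. Of 13667 coding genes, 2110 and 2115 exceeded 5 RPKM in IFM, against 6123, 6359 and 6030 in wing discs. Unlike the measures above, this count depends on the deposited scale of each table. It therefore does not tell how many genes were expressed in either tissue. Leaving out wing disc sample 2, whose background raises low genes, leaves the other 2 wing disc libraries on the same side of both IFM libraries in each measure.

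**Figure D2:**
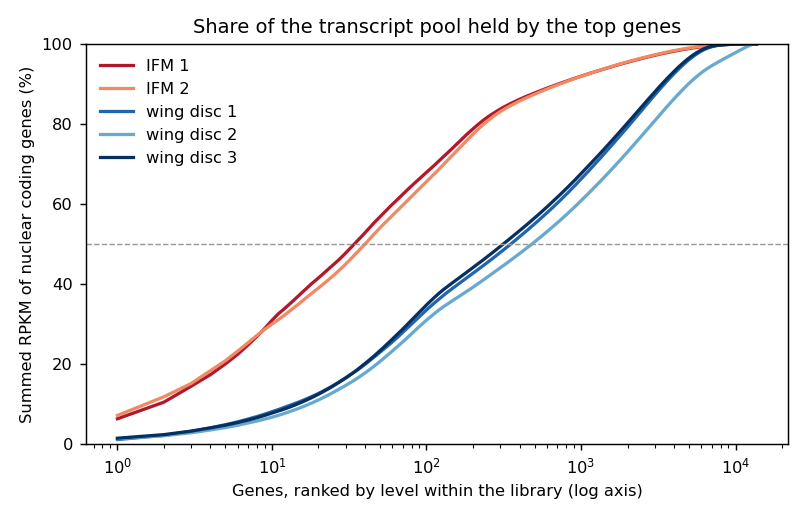
Cumulative share of the summed RPKM of nuclear protein-coding genes found in both tables by identifier (vertical axis, %) against the rank of the gene within its library (horizontal log axis), 1 line per library. The dashed line marks 50%, which both IFM libraries reach within 41 genes and the wing disc libraries after 314 to 481 genes.

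The pools were led by different kinds of gene. In IFM, the 10 highest genes of the coding pool were *Act88F*, *Mlc2*, *ATPsynC*, *Mhc*, *Mlc1*, *sesB*, *GstS1*, *CG13067*, *blw* and *CG13678*. Among them are the myosin heavy chain and both of its light chains, 2 subunits of the ATP synthase (*ATPsynC* and *blw*) and the ADP/ATP carrier of the inner mitochondrial membrane (*sesB*). The cytochrome c gene *Cyt-c-p*, joined by symbol and so outside the pool, was also among the highest genes of IFM, with 4466 and 4383 RPKM in IFM, against 117, 79.0 and 142 RPKM in wing discs. *Act88F* alone made up 6.33 and 7.17% of the coding pool in IFM samples 1 and 2. Among the highest genes of the pool in wing discs were *Act5C*, *Df31*, *CNBP* and the ribosomal protein genes *RpL41*, *RpL23*, *RpLP2* and *RpS29*. The elongation factor gene *eEF1alpha1*, joined by symbol and so outside the pool, had a mean of 4488 RPKM in wing discs. That is above the mean of 4098 RPKM of *RpL41*, the highest gene of the pool there. *Act5C*, a cytoplasmic actin, stood at 93.9 and 50.2 RPKM in IFM, against 2773, 1986 and 2913 RPKM in wing discs. *Df31*, which encodes a chromatin factor, had 3.77 and 4.08 RPKM in IFM, against 2449.7, 1604 and 2388 RPKM in wing discs.

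This concentration bears on every comparison of single genes. RPKM values of a library share one total, and the median gene tested was lower in IFM by a log2 difference of −1.66 on the deposited scale. Median-ratio scaling over genes above 0 in all 5 libraries, called the common scale here, moves IFM up against wing discs by 2.67 log2 units, and its median over all genes was −0.16. As TPM of nuclear coding genes the median was −1.88, and after quantile normalization −0.19. On the common scale, 3144 genes (25.1%) were higher and 3057 (24.4%) lower in IFM at an adjusted *P* (limma, Benjamini-Hochberg) under 0.05 and a fold difference over 1.5, and on the deposited scale 887 (7.09%) were higher and 7152 (57.2%) lower. Under all 4 scalings, 835 genes (6.68%) were higher and 2985 (23.9%) lower in IFM. Of these, 835 and 2947 were also called on the common scale without wing disc sample 2. The fit without it had 2907 genes (29.5%) higher and 3949 (40.0%) lower among 9862 tested. Without wing disc sample 1, 1894 genes were lower on the common scale. The libraries of both tissues did not overlap on the common scale in 3806 genes (30.4%) that were higher in IFM and 4257 (34.0%) that were lower. Below, log2 differences are IFM minus wing disc on the common scale. A gene is said to rise or fall in IFM only where it was called the same way under all 4 scalings. This rule is stricter for rises, because the median gene was lower in IFM on the deposited scale (−1.66) and as TPM (−1.88). From 3144 genes called higher on the common scale it kept 835, but from 3057 called lower it kept 2985. Counts of rises and falls are therefore to be read beside the shares for all genes (6.68% and 23.9%), not against each other. The spread behind each standard error was taken by limma wholly from its trend over expression level, so that genes of like level share it and the smallest *P* values are not read further. The constant of 0.5 shrinks the differences of genes that are close to 0 in one tissue, such as many of those that fell.

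The largest differences included muscle genes on the side of IFM and chromatin and cell cycle genes on the side of the disc, with cuticle genes on both sides. Among protein-coding genes joined by identifier whose libraries did not overlap, the 10 largest rises were those of *Act88F*, *CG13051*, *CG13068*, *Mhc*, *TpnC4*, *CG13674*, *Scp1*, *CG13069*, *CG13067* and *Ccp84Ae*, with log2 differences between 11.89 and 15.32. *Scp1* encodes a sarcoplasmic calcium-binding protein, and *Ccp84Ae* a cuticle protein. The 10 largest falls among the same genes were those of *ImpE2*, *Lcp4*, *HmgD*, *Lcp1*, *CG42500*, *Df31*, *Jheh2*, *Cks30A*, *Tom* and *zld*, between −8.60 and −6.03. *ImpE2*, an ecdysone-inducible gene of the disc, stood at 0.170 and 0.213 RPKM in IFM, against 1361, 766 and 671 RPKM in wing discs. *Lcp4*, a larval cuticle gene, had 0.0998 and 0.106 RPKM in IFM, against 431, 72.7 and 272 RPKM in wing discs. *HmgD*, a high mobility group protein of chromatin, had 1.2204 and 1.35 RPKM in IFM, against 1134, 648 and 1081 RPKM in wing discs. *CG42500* and *Jheh2* are listed at 0 in both IFM libraries, and whether these are levels or gaps in counting was not tested.

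The contractile apparatus took 19.5 and 22.2% of the nuclear coding pool in IFM samples 1 and 2, against 0.149, 0.164 and 0.113% in wing discs 1, 2 and 3. Of 36 genes in this list, 35 were tested, 28 rose and 1 fell, and their median log2 difference was 7.53. All 9 thick filament genes rose, with a median of 10.81. *Mhc* (FBgn0264695, 2L:16766566-16788766 in dm6), the muscle myosin heavy chain, stood at 6218 and 7359.7 RPKM in IFM, against 5.87, 5.70 and 4.44 RPKM in wing discs (log2 difference 12.72, SE 0.56). *Mlc2*, the regulatory light chain, had 9639 and 10742 RPKM in IFM, against 22.2, 24.8 and 16.8 RPKM in wing discs. *bt*, which encodes the giant kinase Projectin, had 586 and 536 RPKM in IFM, against 2.32, 2.46 and 1.88 RPKM in wing discs. These 3 genes had a low but even level in all 3 wing disc libraries, whereas *Obsc*, the gene of the M-line protein Obscurin, had 567 and 605 RPKM in IFM, against 0.382, 2.87 and 0.274 RPKM in wing discs.

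Thin filament genes were less uniform. Of 14 tested, 10 rose, led by *Act88F*, *TpnC4* and the tropomyosin gene *Tm2*, and 13 were higher on the common scale. *up*, the troponin T gene, stood at 2026 and 2108 RPKM in IFM, against 19.9, 18.1 and 10.5 RPKM in wing discs. *Act57B*, an actin of larval muscle, rose far less than *Act88F*, with 83.4 and 108 RPKM in IFM, against 76.5, 51.4 and 45.3 RPKM in wing discs (log2 difference 3.40, SE 0.54). The troponin C genes *TpnC25D*, *TpnC47D* and *TpnC73F* stayed below 25 RPKM in every library and were not called on the deposited scale. Their paralogue *TpnC4* is the form known from flight muscle.

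At the Z-disc, 9 of 12 genes rose and 1 fell. *sls*, which encodes the titin-like Sallimus and Kettin, stood at 179.5 and 165 RPKM in IFM, against 5.04, 4.87 and 4.92 RPKM in wing discs (log2 difference 7.51, SE 0.49). *Actn*, alpha-actinin, had 322 and 401 RPKM in IFM, against 48.5, 30.2 and 45.2 RPKM in wing discs. *Zasp52*, which binds alpha-actinin, had 402 and 446 RPKM in IFM, against 59.1, 41.7 and 52.4 RPKM in wing discs. The gene that fell was *Lasp*, a LIM and SH3 domain protein, listed at 0 in both IFM libraries against 9.85, 6.71 and 9.09 RPKM in wing discs 1, 2 and 3. Each tissue was deposited in its own table, and whether this 0 is a level or a gap in counting was not tested. No Z-disc gene other than *Lasp* was lower in IFM on the common scale.

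**Figure D3:**
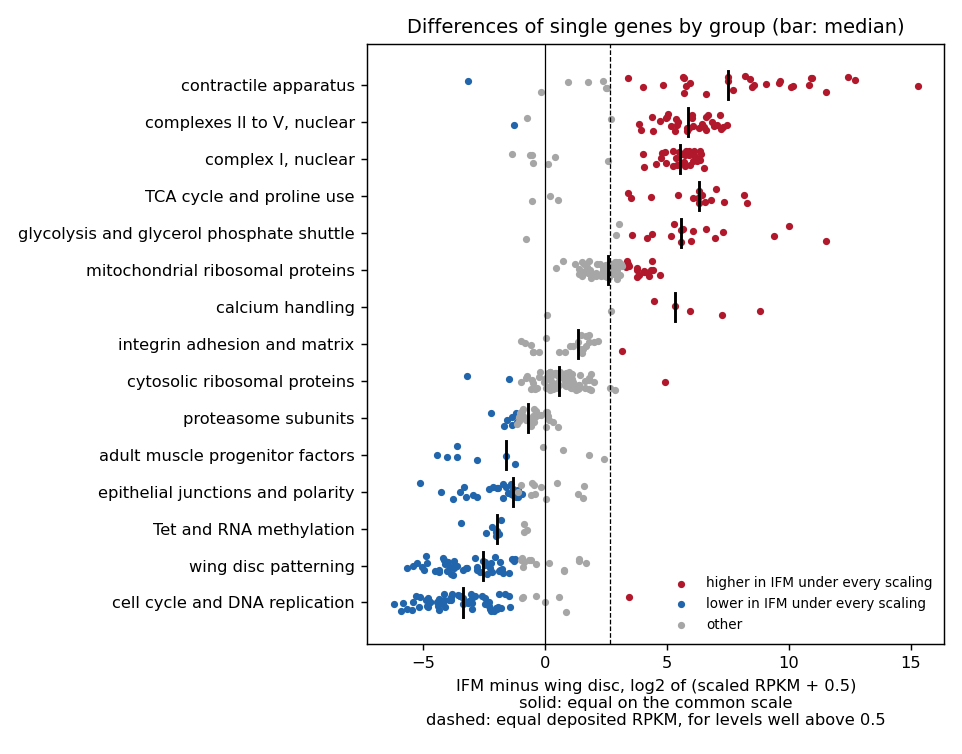
Log2 difference (IFM minus wing disc, common scale) of each tested gene in 15 gene lists, 1 point per gene, with the median as a bar. Points are red or blue where the gene was higher or lower under all 4 scalings and grey otherwise, and the solid and dashed lines mark equality on the common and on the deposited scale. The medians of the contractile (7.53) and complex I (5.55) lists lie to the right of both lines, and those of the patterning (−2.54) and cell cycle (−3.37) lists to the left of both.

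Most genes for calcium release and uptake rose. Of 10 in the list, 7 were tested, 5 rose and 0 fell (median log2 difference 5.32). *RyR*, the ryanodine receptor that releases calcium from the sarcoplasmic reticulum, stood at 112 and 141 RPKM in IFM, against 0.159, 2.76 and 0.205 RPKM in wing discs. *Ca-alpha1D*, the voltage-gated calcium channel of muscle, had 37.2 and 42.3 RPKM in IFM, against 0.133, 2.88 and 0.0464 RPKM in wing discs. *SERCA*, the pump that returns calcium, was already well above background in the disc, with 355 and 366 RPKM in IFM, against 36.2, 30.1 and 41.0 RPKM in wing discs. The inositol trisphosphate receptor gene *Itpr*, the other release channel of the list, had 2.71 and 2.85 RPKM in IFM, against 16.6, 14.6 and 18.1 RPKM in wing discs, and was not called on the common scale.

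Regulators of muscle identity differed less between the tissues than the contractile genes. Of 14 transcription and splicing factors tested, 1 rose and 2 fell, beside 6.68% and 23.9% of all genes. On the common scale 6 were higher and 2 lower, and the median log2 difference was −0.29. The gene that rose was *bru1*, which encodes the splicing factor Bruno 1 (Arrest) of fibrillar muscle, at 58.4 and 78.4 RPKM in IFM, against 0.131, 2.45 and 0.102 RPKM in wing discs (log2 difference 8.04, SE 0.43). Those that fell were *mbl*, the Muscleblind splicing factor gene, and *sd*, the partner of Vestigial. *Mef2*, the general muscle transcription factor, which AMPs also express, had 14.3 and 17.6 RPKM in IFM, against 16.5, 12.99 and 16.0 RPKM in wing discs. Its deposited values overlap between the tissues. *salm*, the selector of fibrillar muscle, is also a patterning gene of the wing pouch and had 34.2 and 40.4 RPKM in IFM, against 98.4, 72.2 and 103 RPKM in wing discs. *Mef2* was higher in IFM on the common scale (log2 difference 2.66, SE 0.48), whereas its difference on the deposited scale was 0.07. For *salm*, the difference was 1.38, SE 0.54 on the common scale and −1.26 on the deposited scale. Without wing disc sample 2, 6 of 13 were higher and 6 lower on the common scale, beside 29.5% and 40.0% of all genes in that fit.

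Genes of mitochondrial energy metabolism rose almost as a whole. Complexes II to V of the respiratory chain, by their subunits encoded in the nucleus, held 18.3 and 18.1% of the coding pool in IFM samples 1 and 2, against 1.23, 1.216 and 1.45% in wing discs. Complex I held 4.15 and 4.36% in IFM and 0.399, 0.399 and 0.436% in wing discs. In complex I, 31 of 38 genes tested rose and 0 fell, and in complexes II to V 33 of 36 rose and 1 fell. Their median log2 differences were 5.55 and 5.87, beside −0.16 for all genes.

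Regular subunits of complex I that rose did so by log2 differences between 4.02 (*ND-B12*) and 6.51 (*ND-B14.5B*). *ND-75*, its large subunit with iron-sulphur clusters, had 307 and 340.3 RPKM in IFM, against 26.4, 23.1 and 32.4 RPKM in wing discs. In complex V, *blw*, the alpha subunit of the ATP synthase, stood at 4592 and 4261 RPKM in IFM, against 174, 135 and 233 RPKM in wing discs (log2 difference 7.31, SE 0.61). *ATPsynC*, the c subunit of the rotor, had 9211 and 7652 RPKM in IFM, against 562, 453 and 776 RPKM in wing discs. In all 3 genes the IFM libraries lay far above each wing disc library. Within complex I, the genes that were not called on the common scale, *ND-49L*, *ND-51L1*, *ND-51L2*, *ND-24L*, *ND-20L* and *ND-B14.5AL*, are all copies named after another subunit, and none exceeded 1 RPKM in IFM. The gene of complexes II to V that fell was *ATPsynepsilonL*, a copy of an ATP synthase subunit gene, with 0.269 and 0.285 RPKM in IFM, against 6.07, 4.77 and 6.41 RPKM in wing discs. *COX7A*, a small subunit of cytochrome c oxidase, was not called on the common scale, with 15.3 and 12.1 RPKM in IFM, against 143, 117 and 179 RPKM in wing discs, and was lower there without wing disc sample 2.

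Enzymes that feed the chain rose as well. Of 18 genes of the tricarboxylic acid cycle and of proline use that were tested, 15 rose and 0 fell, with a median of 6.31. *kdn*, citrate synthase, stood at 2391 and 2439 RPKM in IFM, against 50.9, 36.4 and 61.1 RPKM in wing discs (log2 difference 8.28, SE 0.58). *slgA*, the proline dehydrogenase gene, had 49.8 and 52.7 RPKM in IFM, against 29.8, 20.8 and 32.6 RPKM in wing discs. The enzymes not called were *Got1*, *Got2* and *Idh*. *Idh*, the isocitrate dehydrogenase that uses NADP, had 14.03 and 15.9 RPKM in IFM, against 158, 109 and 158 RPKM in wing discs, and was lower in the fit without wing disc sample 2. *Idh3a*, a subunit of the mitochondrial enzyme of the cycle that uses NAD, had 1075 and 1304 RPKM in IFM, against 100.005, 79.1 and 109.7 RPKM in wing discs.

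Of 19 genes of glycolysis and the glycerol phosphate shuttle, 16 rose and 0 fell (median 5.57). The largest difference of the list was that of *Mpcp1*, a phosphate carrier of mitochondria, with 1363 and 1061 RPKM in IFM, against 0.993, 4.38 and 0.649 RPKM in wing discs. The enzymes of the shuttle that carries reducing power into mitochondria came next. *Gpdh1*, the cytosolic glycerol 3-phosphate dehydrogenase, stood at 744 and 584 RPKM in IFM, against 4.57, 6.82 and 4.52 RPKM in wing discs (log2 difference 9.38, SE 0.52). *Gpo1*, its mitochondrial counterpart, had 699.8 and 888 RPKM in IFM, against 3.16, 5.18 and 3.22 RPKM in wing discs. *Ldh*, lactate dehydrogenase, was low in both tissues, with 0.407 and 0.259 RPKM in IFM, against 4.502, 4.74 and 3.74 RPKM in wing discs. Flight muscle is known to regenerate NAD through this shuttle with very little lactate dehydrogenase. *Gapdh2* and *Hex-A* were called on the common scale but not under all 4, and the deposited values of *Gapdh2* overlap between the tissues, with 285 and 404 RPKM in IFM, against 342, 196 and 337 RPKM in wing discs. Its paralogue *Gapdh1* rose, with 1715 and 2573 RPKM in IFM, against 99.3, 57.2 and 105 RPKM in wing discs.

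Mitochondrial and cytosolic ribosomal protein genes held opposite places in the pools. The 70 mitochondrial ribosomal protein genes tested had a median log2 difference of 2.58 on the common scale, where 68 were higher and 0 lower, but of 0.04 on the deposited scale, and 16 rose under all 4 scalings. *mRpL55*, of the large subunit, had the largest difference, with 97.6 and 88.4 RPKM in IFM, against 23.1, 15.8 and 25.9 RPKM in wing discs. Cytosolic ribosomal proteins, the group with the largest share of the disc pool among those plotted, held 7.61 and 8.41% of the coding pool in IFM and 23.6, 21.98 and 24.9% in wing discs. Of 85 tested, 75 were lower on the deposited scale, and on the common scale 16 were higher and 2 lower. The gene that rose under all scalings was the copy *RpS10a*, with 8.77 and 6.99 RPKM in IFM, against 0, 2.92 and 0.220 RPKM in wing discs, and those that fell were *RpL24-like* and *RpLP0-like*. The direction of the ribosomal proteins as a group thus turned with the scaling, while their share of the pool did not overlap between the tissues.

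**Figure D4:**
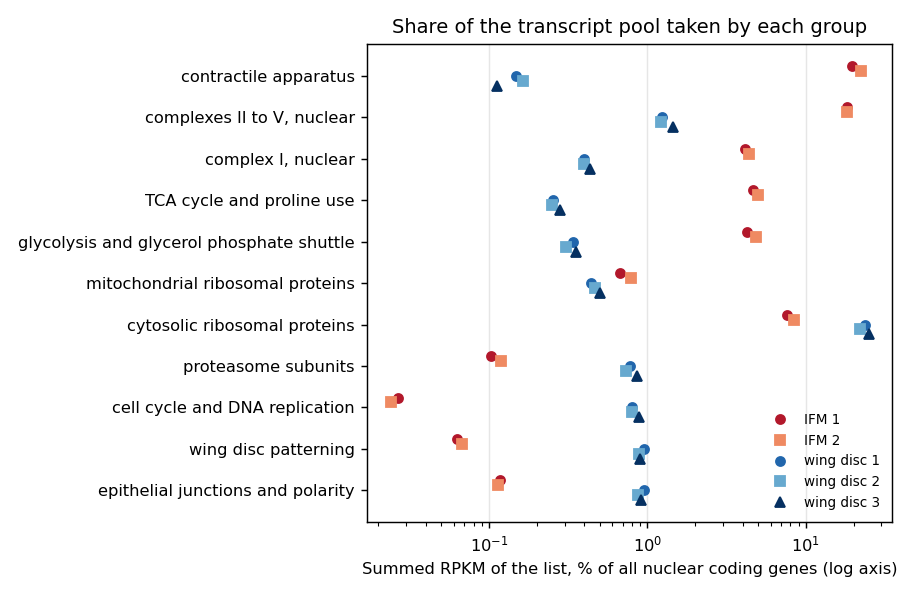
Summed RPKM of 11 gene lists as a percentage of the coding pool (log axis), 1 point per library. Contractile genes take 19.5 and 22.2% in IFM and 0.149, 0.164 and 0.113% in wing discs, and the wing disc libraries are the higher ones for ribosomal, proteasome, cell cycle, patterning and junction genes.

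Genes of the cell cycle fell in IFM, whose nuclei are postmitotic. Of 65 cell cycle and replication genes tested, 58 fell and 1 rose, and their median log2 difference was −3.37. Mitotic genes had the lowest median (−4.11, with 23 of 24 falling), followed by cyclins and kinases (−3.37, 15 of 18) and replication factors (−2.48, 20 of 23). *polo* (FBgn0003124, 3L:20309654-20313466 in dm6), the kinase of mitotic entry and spindle assembly, stood at 0.0531 and 0.0282 RPKM in IFM, against 85.9, 61.0 and 94.0 RPKM in wing discs (log2 difference −5.92, SE 0.43). *CycA*, a mitotic cyclin, had 0.0451 and 0.105 RPKM in IFM, against 84.5, 58.9 and 90.6 RPKM in wing discs. *Incenp*, of the chromosomal passenger complex, had 0.0557 and 0.0296 RPKM in IFM, against 71.5, 62.7 and 91.2 RPKM in wing discs. In IFM these transcripts amounted to a few reads per kilobase. In bulk tissue, fewer cells of a type and less RNA per cell cannot be told apart.

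Not every cell cycle gene fell under all scalings. *Cks85A*, a cyclin-dependent kinase subunit, rose, with 6.07 and 8.47 RPKM in IFM, against 3.71, 3.09 and 2.94 RPKM in wing discs. Its paralogue *Cks30A* had 0.0460 and 0.0488 RPKM in IFM, against 109, 79.2 and 118 RPKM in wing discs, and was among the 10 largest falls of the genes joined by identifier. *E2f1*, the transcription factor that drives S phase genes and is also known to act in flight muscle growth, had 8.41 and 10.5 RPKM in IFM, against 130.3, 97.2 and 121 RPKM in wing discs, and was not called on the common scale, but was lower there without wing disc sample 2. *PCNA*, the sliding clamp of replication and a target of E2f1, had 0.887 and 0.209 RPKM in IFM, against 106, 85.3 and 158 RPKM in wing discs (log2 difference −4.83, SE 0.47). The genes *Cdc6*, *fzr*, *pbl*, *PolE1* and *Cdk4* were not called on the common scale either, and of these *Cdk4* was lower there without wing disc sample 2. All 6 were lower on the deposited scale.

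The patterning genes of the disc fell broadly. Of 59 tested, 46 fell and 0 rose under all scalings, and the median log2 difference was −2.54. Selector and territory factors had a median of −3.06 and signals and receptors one of −2.43. *en*, which defines the posterior compartment, stood at 0.0283 and 0.0100 RPKM in IFM, against 55.1, 42.1 and 51.6 RPKM in wing discs (log2 difference −5.41, SE 0.42). *hh* (FBgn0004644, 3R:23128169-23141906 in dm6), the gene of the Hedgehog ligand, which En activates, had 0.0334 and 0.0590 RPKM in IFM, against 39.9, 33.0 and 40.0 RPKM in wing discs. *rn*, of the wing pouch, had 0.0924 and 0.0491 RPKM in IFM, against 87.7, 58.9 and 80.4 RPKM in wing discs. All IFM values of these 3 genes lay under 0.1 RPKM.

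Some territory genes kept a measurable level in IFM. *hth*, which marks the proximal wing and notum, had 19.4 and 15.7 RPKM in IFM, against 162, 118 and 151 RPKM in wing discs. *vg*, the wing selector that AMPs also express, had 5.29 and 6.03 RPKM in IFM, against 73.3, 53.8 and 73.7 RPKM in wing discs. Neither was called on the common scale, but both were lower on the common scale without wing disc sample 2. *vn*, the neuregulin-like ligand of the EGF receptor, had 8.51 and 11.1 RPKM in IFM, against 38.8, 29.3 and 39.8 RPKM in wing discs. The 3 members that were higher on the common scale were *salm*, *rho* and *pros*, and none of them was called higher on the deposited scale.

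Junction and polarity genes split by class. Of 10 genes for planar polarity and the Fat-Dachsous system, 10 fell, with a median of −2.88. Among them, the atypical myosin gene *dachs* stood at 0.267 and 0.238 RPKM in IFM, against 102, 72.6 and 109.7 RPKM in wing discs (log2 difference −5.14, SE 0.45). The giant cadherin gene *ft* had 0.291 and 0.450 RPKM in IFM, against 67.8, 50.03 and 76.0 RPKM in wing discs. Adherens junction and apical genes fell in 9 of 11 cases (median −1.20), led by *shg*, the E-cadherin gene, with 2.18 and 2.18 RPKM in IFM, against 177, 113 and 169 RPKM in wing discs. Basolateral and septate junction genes fell in 7 of 17 cases (median −0.98), beside 23.9% of all genes. Without wing disc sample 2, 11 of these were lower on the common scale, beside 40.0% of all genes. Of this class, *dlg1*, *Nrg* and *Atpalpha*, which muscle and nerve also use, were higher in IFM on the common scale and lower on the deposited scale.

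Factors of the AMPs were mostly lower in IFM, which arise from these cells, than in the whole wing disc. The study states that AMPs are a minor part of the disc's cells, so the disc values are not levels of AMPs alone. Of 11 tested, 7 fell and 0 rose under all scalings, beside 23.9% and 6.68% of all genes, with a median of −1.61. *twi*, the transcription factor that holds myoblasts undifferentiated, stood at 0.0110 and 0.0234 RPKM in IFM, against 26.6, 20.2 and 27.5 RPKM in wing discs (log2 difference −4.44, SE 0.40). *Him*, an inhibitor of Mef2, had 0.229 and 0.122 RPKM in IFM, against 20.0, 11.9 and 11.3 RPKM in wing discs. *N*, the Notch receptor gene, had 1.68 and 1.33 RPKM in IFM, against 149, 96.6 and 148 RPKM in wing discs. The Notch target *E(spl)m6-BFM* had 0.0232 and 0 RPKM in IFM, against 18.5, 15.7 and 18.7 RPKM in wing discs. None of these 4 genes overlapped between the tissues, and on the common scale 34.0% of all genes were lower in IFM without overlap.

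The progenitor factors *zfh1* and *htl* did not follow. *zfh1*, a repressor of myoblast differentiation, had 8.04 and 7.47 RPKM in IFM, against 17.4, 10.6 and 12.6 RPKM in wing discs. Its difference was 1.81, SE 0.46 on the common scale but −0.74 on the deposited scale. *htl*, a fibroblast growth factor receptor gene, had 6.78 and 6.5396 RPKM in IFM, against 7.30, 6.21 and 7.402 RPKM in wing discs, values that overlap. Its difference was 2.43, SE 0.43 on the common scale and −0.06 on the deposited scale. *ct*, which is stronger in progenitors of the direct flight muscles, fell, with 0.474 and 0.834 RPKM in IFM, against 12.6, 9.202 and 11.1 RPKM in wing discs.

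A wider list of 157 AMP markers was taken from the study's own compilation of a published single-cell atlas of the larval disc. Of these genes, 145 were tested, 56 fell and 9 rose, beside 23.9% and 6.68% of all genes. Their median log2 difference was −0.14 on the common scale, against −0.16 for all genes, but −2.70 on the deposited scale, against −1.66 for all genes. Without wing disc sample 2, 70 of 143 were lower on the common scale, beside 40.0% of all genes. Their summed RPKM made up 7.96 and 7.79% of the coding pool in IFM and 11.4, 10.3 and 11.5% in wing discs. Those that rose were *eEF1alpha2*, *ATPsynC*, *Idh3a*, *CG43386*, *COX5A*, *UQCR-Q*, *uncNacbeta*, *Argk1* and *Act57B*. They include the elongation factor of nerve and muscle, arginine kinase, an actin and 4 genes of energy metabolism counted above. The largest falls were those of *miple2*, a secreted growth factor gene, with 0.577 and 0.705 RPKM in IFM, against 400.4, 233 and 325 RPKM in wing discs, followed by the Notch targets *E(spl)malpha-BFM* and *E(spl)m2-BFM*. Genes for myoblast fusion, which ends well before 96 h APF, fell in 5 of 14 cases and rose in 0, beside 23.9% and 6.68% of all genes. Their median log2 difference was −0.12 on the common scale, close to the −0.16 of all genes. The 5 that fell were *blow*, *rols*, *rst*, *Crk* and *sns*, with *blow* at 1.17 and 0.599 RPKM in IFM, against 61.3, 42.3 and 66.6 RPKM in wing discs.

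*Tet* (FBgn0263392, 3L:2786207-2879158 in dm6) fell, with 2.04 and 3.01 RPKM in IFM, against 203, 148 and 204.6 RPKM in wing discs (log2 difference −3.45, SE 0.51). Within its library it ranked at percentiles 75.6 and 80.4 of all genes in IFM samples 1 and 2, against percentiles 98.6, 98.5 and 98.5 in wing discs 1, 2 and 3. Most genes that write or read RNA methylation fell too. Of 11 genes tested in this list, *Tet* included, 8 fell and 0 rose, with a median of −1.95. *Mettl3*, the catalytic subunit of the enzyme that makes N6-methyladenosine, stood at 0.321 and 0.284 RPKM in IFM, against 14.3, 11.1 and 11.9 RPKM in wing discs. *Mettl14*, its partner, had 0.412 and 0.557 RPKM in IFM, against 18.5, 11.7 and 16.6 RPKM in wing discs. *Ythdc1*, its nuclear reader, had 1.48 and 1.90 RPKM in IFM, against 72.3, 50.6 and 66.5 RPKM in wing discs. The members not called on the common scale were *fl(2)d*, *Nsun5* and *Mt2*, of which *fl(2)d* and *Nsun5* were lower there without wing disc sample 2. The summed level of the list was 13.1 and 17.8 RPKM in IFM and 514, 369 and 507 RPKM in wing discs.

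Genes of the ecdysone response and of developmental timing differed in both directions. Of 19 ecdysone genes tested, 3 rose and 5 fell, beside 6.68% and 23.9% of all genes. On the common scale 8 were higher and 5 lower. Those that rose were *ftz-f1*, *Cyp18a1* and *Eip93F*. *ftz-f1*, a nuclear receptor expressed when ecdysone has declined, had 59.7 and 21.1 RPKM in IFM, against 7.33, 6.84 and 8.14 RPKM in wing discs. *Cyp18a1*, an enzyme that degrades ecdysone, had 8.94 and 4.08 RPKM in IFM, against 0.275, 2.41 and 0.537 RPKM in wing discs. *Eip93F*, a late specifier of adult fates, had 4.28 and 3.97 RPKM in IFM, against 0.385, 2.19 and 0.0663 RPKM in wing discs. Those that fell were *ImpE1*, *ImpE2*, *ImpE3*, *ImpL2* and *sad*, the last of which was not called without wing disc sample 2. The receptor gene *EcR* had 10.0 and 8.70 RPKM in IFM, against 48.8, 39.1 and 53.9 RPKM in wing discs, and was not called on the common scale. In the timing list, *chinmo*, a factor of early developmental stages, fell, with 0.499 and 0.483 RPKM in IFM, against 11.5, 19.4 and 21.0 RPKM in wing discs. The transcription factor gene *ab* fell as well, with 0.0760 and 0.169 RPKM in IFM, against 66.8, 48.7 and 72.5 RPKM in wing discs.

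Cuticle protein genes stood on both sides. Of 99 tested, 18 rose and 18 fell under all scalings, beside 6.68% and 23.9% of all genes. On the common scale 34 were higher and 21 lower, and on the deposited scale 20 were higher and 34 lower. Without wing disc sample 2, 31 of 69 were higher and 20 lower on the common scale. Those that fell include the larval cuticle genes *Lcp1*, *Lcp2*, *Lcp3* and *Lcp4*, of which *Lcp1* had 0.0742 and 0.158 RPKM in IFM, against 292, 88.4 and 179 RPKM in wing discs. Those that rose were led by *Ccp84Ae*, *Cpr64Ad*, *Cpr30F* and *Ccp84Ag*. *Ccp84Ae* stood at 1287 and 722 RPKM in IFM, against 0.123, 2.75 and 0 RPKM in wing discs, and IFM sample 1 was the higher of both IFM libraries. *Twdlbeta*, of another cuticle protein family, had 220.3 and 209.6 RPKM in IFM, against 5.33, 6.46 and 8.53 RPKM in wing discs.

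Cuticle is known to be made by epidermis and not by muscle, and genes of epidermal enzymes are given beside it. Of 7 such genes tested, 3 rose and 1 fell, beside 6.68% and 23.9% of all genes. Their summed level was 42.8 and 66.8 RPKM in IFM and 45.8, 45.9 and 49.9 RPKM in wing discs, and none was at 0 in an IFM library. *ple*, the tyrosine hydroxylase gene of cuticle tanning, had 27.2 and 40.8 RPKM in IFM, against 0.794, 2.55 and 0.360 RPKM in wing discs. The one that fell was the chitin synthase gene *kkv*, with 1.49 and 1.73 RPKM in IFM, against 42.9, 32.1 and 48.0 RPKM in wing discs. Their part in the cuticle result was not tested.

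Marker genes of other cell types were measured in both tissues, and their part in the differences above was not tested. Glial markers summed to 125 and 84.4 RPKM in IFM and 150.5, 119.7 and 144 RPKM in wing discs. Of 10 tested, 3 rose and 2 fell, beside 6.68% and 23.9% of all genes. The glutamate transporter gene *Eaat1* was among those that rose, with 42.9 and 30.2 RPKM in IFM, against 0.400, 2.44 and 0.352 RPKM in wing discs. On the common scale 6 of the 10 glial markers were higher and 2 lower (median log2 difference 1.68). The glial master gene *repo* had 0.686 and 0.504 RPKM in IFM, against 0.574, 2.44 and 0.0591 RPKM in wing discs. Neuron markers summed to 20.3 and 19.9 RPKM in IFM and 102, 88.1 and 84.9 RPKM in wing discs, and none of 12 tested was called under all scalings, with 8 higher on the common scale and 2 lower there without wing disc sample 2. Fat body markers summed to 129.7 and 196 RPKM in IFM and 223, 195 and 163 RPKM in wing discs, and 2 of 11 rose, *Fbp1* and *apolpp*. On the common scale 8 of the 11 were higher and 0 lower (median log2 difference 2.03), beside 25.1% and 24.4% of all genes.

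Salivary gland markers fell in 7 of 7 cases. Their summed level was 1.71 and 1.29 RPKM in IFM and 207, 271 and 110.0 RPKM in wing discs, with *Sgs5* and *Eig71Ee* at 0 in IFM sample 2. *Sgs3*, a glue protein gene, had 0.0713 and 0.202 RPKM in IFM, against 115.04, 76.9 and 44.6 RPKM in wing discs. Gut markers summed to 79.1 and 1.45 RPKM in IFM samples 1 and 2 and 53.1, 74.2 and 22.3 RPKM in wing discs. The trypsin gene *alphaTry* alone gave 68.7 and 0.293 RPKM in IFM, against 0.811, 2.31 and 0.154 RPKM in wing discs, which is most of the sum in IFM sample 1, and trypsin genes of this cluster are near copies whose reads may be split. Hemocyte markers summed to 13.7 and 21.3 RPKM in IFM and 95.5, 70.9 and 59.4 RPKM in wing discs, with *Hml*, the hemolectin gene, at 4.42 and 4.35 RPKM in IFM, against 4.34, 4.01 and 2.22 RPKM in wing discs. Of 11 hemocyte markers tested, 6 were higher and 3 lower in IFM on the common scale (median log2 difference 0.996), and 0 rose and 3 fell under all scalings. Tracheal markers summed to 60.8 and 64.3 RPKM in IFM and 421, 295 and 407 RPKM in wing discs, and tendon markers to 13.4 and 9.46 RPKM in IFM and 54.2, 46.5 and 52.3 RPKM in wing discs. In the tracheal list, 1 of 7 rose and 1 fell, and in the tendon list 0 of 5 rose and 1 fell, beside 6.68% and 23.9% of all genes. On the common scale 2 tracheal markers were higher and 1 lower (median log2 difference 0.53). There 1 tendon marker was higher and 1 lower (median log2 difference 0.22).

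Ratios of related genes within a library were taken from scaled RPKM + 0.5, so that the constant and the scaling enter where a gene is near 0. Of 22 pairs that could be formed, 19 did not overlap between the tissues. Among single genes on the common scale, 30.4% were higher and 34.0% lower in IFM without overlap. For each of the 19 pairs the exact two-sided permutation test over the 5 libraries gave *P* 0.1, the smallest it can give with 2 libraries against 3. With deposited RPKM and no constant, where the scaling cancels, 16 of the 19 pairs with no library at 0 did not overlap. The pairs set mostly a muscle or mitochondrial form against a general form, share genes with the lists above, and in 6 of them a gene was joined by symbol. The log2 ratio of *Act88F* to the cytoplasmic actin *Act5C* was 7.29 and 8.36 in IFM, against −10.51, −8.62 and −10.94 in wing discs. That of *Mhc* to the nonmuscle myosin *zip*, joined by symbol, was 10.07 and 10.29 in IFM, against −5.18, −4.59 and −5.53 in wing discs. The ratio of the light chain *Mlc2* to its nonmuscle form *sqh* was 8.88 and 9.02 in IFM, against −2.48, −2.18 and −3.10 in wing discs. For all 3, the sign of the ratio turned between the tissues.

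Pairs outside the contractile apparatus differed as well. Elongation factor *eEF1alpha2*, the form of nerve and muscle, stood against *eEF1alpha1* at a log2 ratio of 1.57 and 2.13 in IFM, against −7.95, −7.56 and −8.96 in wing discs. Lamin C (*LamC*), of differentiated cells, stood against the B-type lamin *Lam* at 2.07 and 1.06 in IFM, against −3.32, −2.80 and −2.91 in wing discs. The ratio of *Sod2*, the mitochondrial superoxide dismutase, to the cytosolic *Sod1* was 1.15 and 1.71 in IFM, against −2.04, −1.90 and −2.001 in wing discs. The ratio of *sesB* to the second ADP/ATP carrier gene *Ant2* was 8.39 and 9.54 in IFM, against 6.91, 6.02 and 6.76 in wing discs, high in both tissues. In the pair of *RpL22-like* and *RpL22*, the first gene had 0.0428 and 0 RPKM in IFM, and its ratio there is set by the constant.

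The pairs that overlapped were *betaTub60D* with *betaTub56D*, *alphaTub85E* with *alphaTub84B*, and *Syp* with *Imp*. *betaTub60D*, a beta-tubulin of developing muscle, had 6.27 and 6.41 RPKM in IFM, against 151, 98.2 and 106 RPKM in wing discs. Its ratio to the general form *betaTub56D* was −2.72 and −3.11 in IFM, against −2.82, −2.97 and −3.57 in wing discs (exact permutation *P* 0.7). *Syp* and *Imp*, RNA-binding proteins known for opposite gradients over time in neural stem cells, kept a ratio of 2.35 and 2.87 in IFM, against 2.65, 2.53 and 2.45 in wing discs (exact permutation *P* 0.8). For *alphaTub85E* against *alphaTub84B*, the difference of the mean log2 ratios was 1.499 (exact permutation *P* 0.3).

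**Figure D5:**
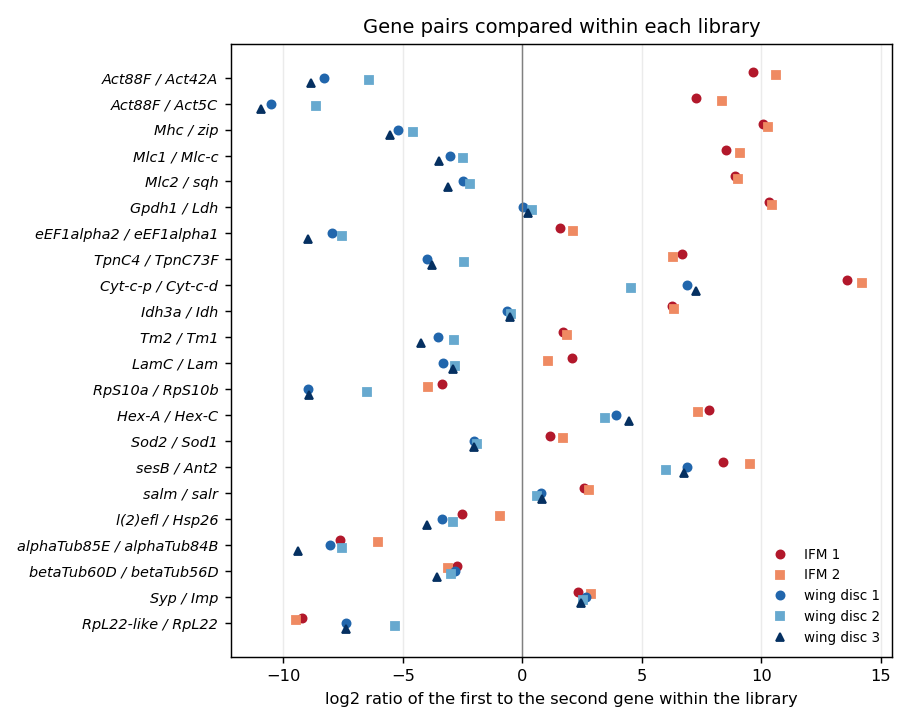
Log2 ratio of the first to the second gene (scaled RPKM + 0.5) of 22 pairs within each library, 1 point per library, ordered by the difference between the tissues. The 2 IFM libraries lie apart from the 3 wing disc libraries in 19 pairs, and tubulin pairs and *Syp* with *Imp* overlap.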

How the data were processed

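RNA was taken from dissected tissue, made into Ovation SoLo libraries and sequenced as 150 bp pairs by the authors. Per the labels and methods, reads were aligned with HISAT2 (2.1.0) to dm6 and counted with HTSeq (0.11.2), and the deposited RPKM values were computed with DESeq2 (1.22.2), in 1 table per tissue. Trimmomatic (0.32) and Cufflinks (2.2.1) are also named in the submitters' processing notes. RPKM are not counts, and no count test was run. The tables were joined by FlyBase identifier. Genes of the mitochondrial genome and ribosomal RNA were left out.

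Values were scaled by median ratios (factors 2.86 and 3.09 for IFM, 0.504, 0.379 and 0.536 for wing discs), and log2(scaled RPKM + 0.5) was tested with limma (3.58.1, R 4.3.3) with a trend, on genes with a mean of the tissue means of at least 0.5 RPKM. Calls needed a Benjamini-Hochberg adjusted *P* under 0.05 and a fold over 1.5. The fit was tested on simulated data. Alternatives changed the constant, limit, scaling, trend, samples or block, and subtraction of receptor background, factors from genes of at least 5 RPKM, pair ratios without a constant and the calls under every scaling were added after the data were seen. The comparison, its members and the lists were chosen with earlier results of these data known. Genes were named by rank within the calls, the pools, the pairs and the lists, and others for their role after their values were seen. Some genes these rules give are not reported here. Coordinates are those of Ensembl annotation 115 on BDGP6.54, the assembly of dm6. Depth, the highest in IFM sample 1 and the lowest in wing disc sample 2, limits the lowest levels.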

Additional observations from a re-analysis of the deposited data

How the results depend on the processing

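Most counts kept within 1.5 times the values of 3144 genes higher and 3057 lower in IFM. With a limit of 5 RPKM, 1520 of 5885 genes tested were higher. On the deposited scale the counts were 887 and 7152, as TPM of nuclear coding genes 969 and 6563, and on the deposited scale without wing disc sample 2, 1216 and 7181. Of the 3144 higher genes, 565 were lower on the deposited scale. The 835 genes higher under all scalings were all called without wing disc sample 2 too. Leaving out each library in turn gave 2305 to 2907 genes higher and 1894 to 3949 lower, the lowest without wing disc sample 1 and the highest number of lower genes without wing disc sample 2. With the replicate number as a block, 2389 genes were higher and 1979 lower. The deviations of same-numbered libraries from their tissue means gave r = −0.10 and −0.16. With 2 IFM libraries these deviations mirror each other, so they cannot decide whether the numbers are a pairing. A test against 1.5-fold (treat) gave 2394 higher and 2096 lower.

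These differences and medians turned in direction under an alternative. On the deposited scale *htl* stood at −0.058, *salm* at −1.26 and *zfh1* at −0.74. Without wing disc sample 2 these became −0.13, −1.42 and −0.89, with *Mef2* at −0.033. As TPM, *salm* had −0.79 and *zfh1* −0.29. Relative to the median of all genes, the median of cytosolic ribosomal proteins was −0.19 on the deposited scale and −1.48 after quantile normalization, that of ecdysone genes −0.49 on the deposited scale, that of tendon markers −0.38 on the deposited scale and −0.72 with Tet-GFP IFM in place of wild-type IFM, and that of tracheal markers −0.43 on the deposited scale and −0.062 after quantile normalization. The cause was not tested. With 2 and 3 libraries, and a background in wing disc sample 2, levels under about 2.13 RPKM in that library cannot be told from background.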

Other observations

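Genes of matrix adhesion, organelle acidification and protein turnover are in no account above. Of 23 integrin adhesion and matrix genes tested, 13 were higher and 0 lower in IFM on the common scale, 1 rose under all 4 scalings, and in the fit without wing disc sample 2, 4 were lower on the common scale, beside 40.0% of all genes. The one that rose was the kindlin gene *Fit2*, at 9.15 and 12.9 RPKM in IFM, against 6.07, 6.98 and 7.25 RPKM in wing discs. *if*, the integrin alpha subunit of muscle attachment sites, had 8.48 and 11.5 RPKM in IFM, against 19.9, 15.0 and 16.7 RPKM in wing discs. Of 19 subunits of the vacuolar proton pump, 3 rose under all 4 scalings, beside 6.68% of all genes. On the common scale 15 were higher and 0 lower, and on the deposited scale 4 were higher and 6 lower. *Vha68-1*, a copy of the catalytic subunit, had 22.6 and 26.0 RPKM in IFM, against 0.921, 2.62 and 0.496 RPKM in wing discs. Of 36 proteasome subunits, 7 fell under all 4 scalings, beside 23.9% of all genes, and in the fit without wing disc sample 2, 24 of 35 were lower on the common scale, beside 40.0% of all genes. *Rpn11*, the deubiquitinase of the lid, had 3.36 and 3.33 RPKM in IFM, against 109, 81.4 and 124 RPKM in wing discs.

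Of 13 chaperone genes tested, 1 rose and 4 fell under all 4 scalings, beside 6.68% and 23.9% of all genes. *Hsc70-5*, the mitochondrial Hsp70, rose, with 77.7 and 92.3 RPKM in IFM, against 42.8, 35.6 and 58.3 RPKM in wing discs. The small heat shock protein genes *Hsp23* and *Hsp27* fell, and *Hsp27* stood at 3.94 and 2.02 RPKM in IFM, against 1366, 876 and 1076 RPKM in wing discs. *Hsc70-3*, the Hsp70 of the endoplasmic reticulum, and the co-chaperone gene *Stip1* fell as well, the first with 7.54 and 10.6 RPKM in IFM, against 216, 147 and 214 RPKM in wing discs. On the muscle side of the neuromuscular junction, 3 of 8 genes rose, beside 6.68% of all genes. Among them was the potassium channel gene *Sh*, with 33.1 and 24.1 RPKM in IFM, against 0.171, 1.76 and 0.0471 RPKM in wing discs.

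A stretch of chromosome 3L holds several of the genes with the largest rises. Between *CG13051* and *CG13046* (3L:16264713-16288422), a stretch chosen after its values were seen, 14 genes were tested and 11 of them rose. *CG13067* had 6726 and 2944 RPKM in IFM, against 4.54, 5.31 and 6.35 RPKM in wing discs. *CG13068* had 2748 and 1088 RPKM in IFM, against 0, 3.33 and 0 RPKM in wing discs. *CG13051* had 3779 and 2428 RPKM in IFM, against 0, 6.82 and 0.114 RPKM in wing discs. The other 3, *CG4950*, *CG13050* and *CG13064*, did not exceed 1.597 RPKM in either IFM library. Of the genes that rose, IFM sample 1 was higher than sample 2 for all but *CG13065*, *CG13048* and *CG13049*.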
